A study of Mus musculus with 4 samples.

Results

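The 40 ribosome biogenesis genes named here were followed in CT26, an established cell line from a colon carcinoma of the mouse, and 38 of them could be read. The genes form a list of factors by role, and a gene counted as read where a probe set of the array carried its symbol and no other. Fbl and Tsr1 are only on probe sets that carry another symbol too and were not read. Where a gene had several such probe sets, the brightest by its mean value was used. The 38 stand among 22180 named genes, of which 14272 were counted as expressed. A gene counted as expressed when its highest value reached 5.98 on the log2 scale, the 40th percentile of all gene values. All 38 lay above that limit on each of the 4 arrays, so the filter took none away.

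The 4 arrays, Affymetrix Mouse Gene 2.0 ST, each held total RNA of 1 culture. One culture received the solvent DMSO and another 5 µM Senexin B, both for 24 h. Senexin B inhibits CDK8 and its paralogue CDK19, the kinases attached to the Mediator complex. The other cultures were the line labelled CT26-pLKO.1, which carries the lentiviral hairpin vector, and the line labelled CT26-shCDK8. The labels do not say what insert the pLKO.1 control holds, nor whether either line is 1 clone or a pool. With 1 array a group there was no test, no SE and no p-value. Each result is a difference between 2 arrays in log2 units, where 0.26 is 1.2-fold and 1 is 2-fold. Samples were bulk RNA, in which a lower level in every cell and a smaller share of cells with that transcript cannot be told apart.

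Ribosome biogenesis begins in the nucleolus, where RNA polymerase I transcribes the ribosomal RNA precursor. Small nucleolar ribonucleoproteins (snoRNPs) of the box C/D and box H/ACA classes guide its methylation and pseudouridylation. Assembly factors then fold and cut the precursor into the RNAs of the small and the large subunit and leave before the ribosome is mature. These genes are highly expressed in proliferating tumour cells and many are known targets of the transcription factor Myc. The array reads messenger RNA of the factors and not ribosomal RNA or finished ribosomes.

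Cdk8, the hairpin's target, was at 9.07 on the shCDK8 array and between 10.58 and 10.79 on the other 3. Array medians over all probe sets lay between 5.99 and 6.04. Of 12 colon epithelial markers 7 reached the expression limit, among them Krt8, Krt18 and Cdh1, while Epcam, Krt19, Vil1, Lgals4 and Cldn7 did not. Krt20 was at 8.72 with DMSO, 8.62 with Senexin B, 8.03 in pLKO.1 and 6.59 in shCDK8. Of 9 measured fibroblast markers 7 reached it, and the mean over all 9 was 7.74 with DMSO, 8.34 with Senexin B, 7.94 in pLKO.1 and 7.62 in shCDK8. Within that list the differences were unequal: with Senexin B Dcn was 2.29 and Pdgfra 1.24 higher and Fap was at -0.46, and in shCDK8 Col3a1 was at -1.27. Fap was under the expression limit on both arrays of that difference, at 5.89 with DMSO and 5.43 with Senexin B, so its size is uncertain. Of 9 immune markers 3 reached the limit, Cd68, Nkg7 and Cd79a, while Ptprc did not, and the mean over the 9 lay between 5.73 and 5.84. Cd79a did so on the Senexin B array alone, at 6.01. Of 7 endothelial markers 5 reached it on at least 1 array, Pecam1, Cdh5, Kdr, Vwf and Tie1, and the mean over the 7 lay between 5.62 and 5.83. Their values stayed close to the limit, at most 6.51 (Tie1), and Cdh5 was under it in pLKO.1 and shCDK8. The part of these markers in the results below was not tested.

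The ribosome biogenesis genes were lower with Senexin B than with DMSO in 38 of 38 cases, where 55.1% of all expressed genes were. The differences ran from -0.44 to -0.035 with a median of -0.23, or 1.17-fold, beside a median of -0.028 over all expressed genes. In the shCDK8 line they were lower than in pLKO.1 in 34 of 38 cases, where 49.1% of all expressed genes were, with a median of -0.14 beside 0.0038. On the probe sets in use every single difference was small, though a second probe set of Npm1 was at -0.72 with Senexin B. On those in use 0 of 38 reached 1.5-fold in either comparison. Of all expressed genes 1.65% were at least 1.5-fold lower with Senexin B and 1.85% in shCDK8. At 2-fold the count was also 0, against 0.252% and 0.322%. At least 1.2-fold lower were 15 genes with Senexin B against 14.1% of all expressed genes, and 5 genes in shCDK8 against 11.5%. At 1.1-fold lower the counts were 30 against 30.2% with Senexin B and 19 against 24.8% in shCDK8. In shCDK8 the count past 1.2-fold was thus near the background, and the shift of the group lay in many differences below that size. None was 1.2-fold higher, where 13.1% of all expressed genes were with Senexin B and 12.9% in shCDK8.

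The Senexin B difference also went with expression level over all genes. Among the 4911 genes past the 80th percentile 68.5% were below 0 with Senexin B, with a median of -0.088, and 38 of the 38 belong to that group, with values from 8.66 to 12.59. When a lowess trend of the difference on level was taken out, the median with Senexin B was -0.15, 36 of 38 stayed below 0, against 50.2% of all expressed genes after the same step, and 8 in place of 15 were at least 1.2-fold lower, against 11.2%. Noc3l and Nop56 were the ones that turned, both by small amounts. In the shCDK8 comparison 52.9% of the genes past the 80th percentile were below 0, and the median of the 38 was -0.13 after the same step. In the plot of the distributions the group is also narrow: its SD over genes was 0.11 with Senexin B and 0.12 in shCDK8, against 0.29 and 0.26 over all expressed genes. For pLKO.1 minus DMSO its SD was 0.11 too, against 0.19, so the narrow spread is not particular to the treated arrays.

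**Figure D1:**
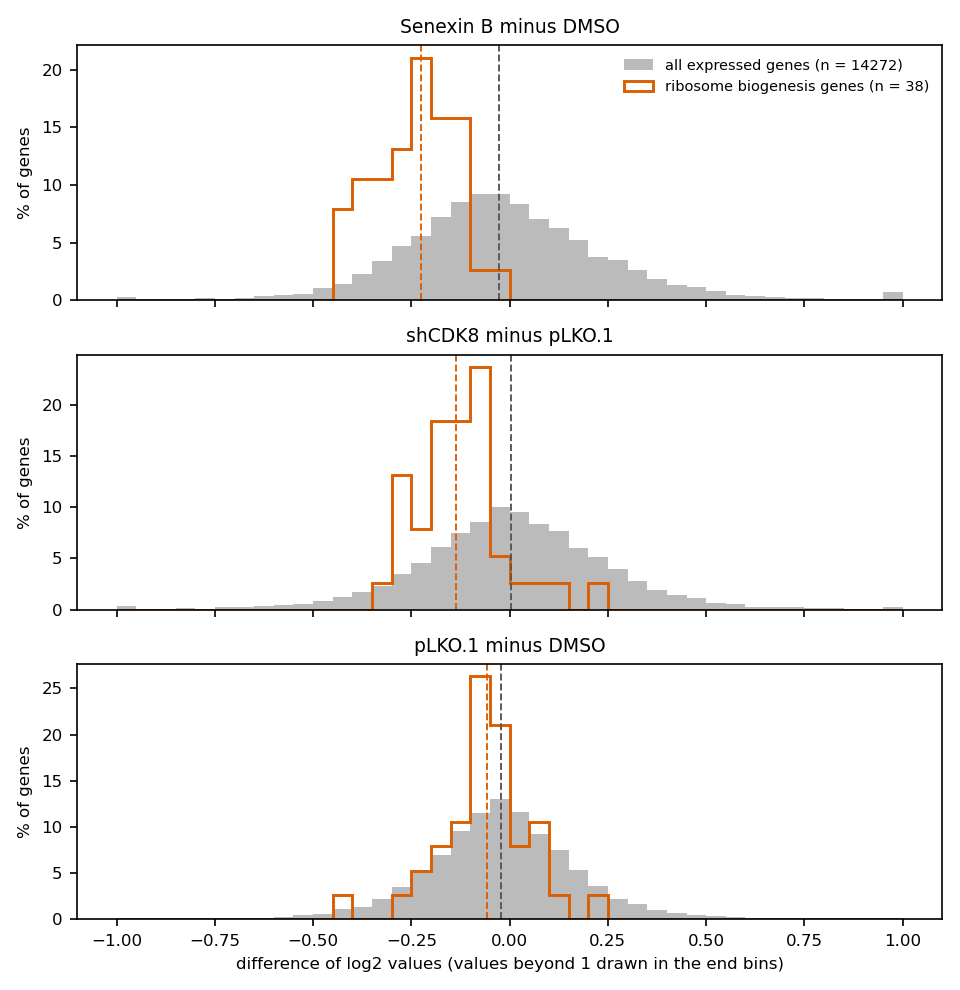
Share of genes (vertical axis, %) by difference of log2 values (horizontal axis, bins of 0.05) in each comparison, grey for the 14272 expressed genes and orange for the 38 ribosome biogenesis genes, with dashed lines at the medians. The orange outline lies wholly left of 0 for Senexin B minus DMSO, mostly left of 0 for shCDK8 minus pLKO.1, and near the grey peak for pLKO.1 minus DMSO.

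The DMSO and pLKO.1 arrays differ in treatment and vector and are not replicates, yet they give the size of a difference between 2 cultures without kinase inhibition. For pLKO.1 minus DMSO the median of the 38 was -0.057, beside -0.023 over all expressed genes. Below 0 were 29 of them, where 55.6% of all expressed genes were, and 2, Rrp9 and Nop16, were at least 1.2-fold lower, where 8.51% were. At 1.1-fold lower were 8 against 23.9%, and 0 were 1.5-fold or 2-fold lower, against 0.434% and 0.014%. The DMSO array was the highest of the 4 for 28 of 38, against 26.6% of all expressed genes, and pLKO.1 for 9, against 17.8%. Senexin B was the lowest for 26, against 31.2%, and shCDK8 for 12, against 28.7%. DMSO and pLKO.1 were the lowest for none, where they were for 18.3% and 21.7% of all expressed genes. The shCDK8 array was the highest for Gnl3 alone, against 28.7%, and Senexin B for none, against 26.9%.

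Since each treated array can be set against either control, the counts were also taken against both. The Senexin B value was below both controls for 36 of 38, where 40.4% of all expressed genes were, the exceptions being Rrp9 and Nop16. The shCDK8 value was below both for 32 of 38, where 38.4% were, the exceptions being Nop58, Gar1, Utp15, Utp20, Gnl3 and Ftsj3. For 30 of 38 both treated arrays lay below both controls, so that the pairs did not overlap, where 18.9% of all expressed genes showed this order. With pLKO.1 as the reference the Senexin B median was -0.16, with 36 below 0 against 50.2% of all expressed genes and 11 at least 1.2-fold lower against 12.7%. With DMSO as the reference the shCDK8 median was -0.18, with 35 below 0 against 52.4% and 9 in place of 5 genes at least 1.2-fold lower where 15.3% of all expressed genes were.

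**Figure D2:**
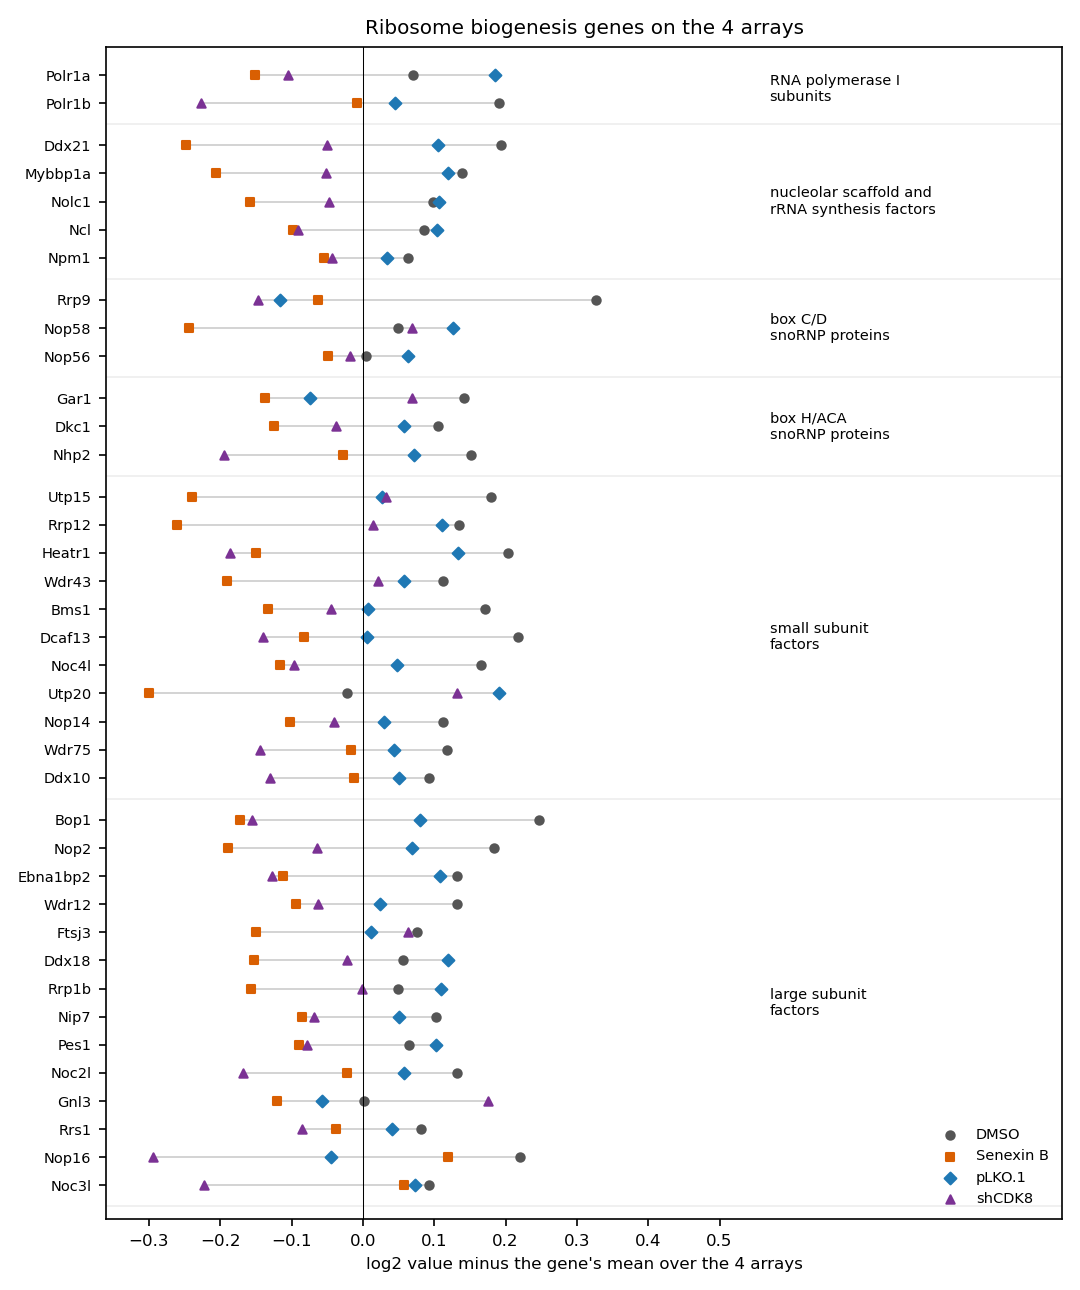
Each row is 1 of the 38 genes, grouped by role and sorted within a role by the Senexin B difference, and each symbol is 1 array, placed by its log2 value minus the gene's mean over the 4 arrays. Grey circles (DMSO) and blue diamonds (pLKO.1) stand mostly right of 0, orange squares (Senexin B) and purple triangles (shCDK8) mostly left, with Gnl3 and Gar1 among the exceptions.

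RNA polymerase I is represented by its largest subunits, which form the catalytic centre. Polr1a was at 9.98 with DMSO, 9.76 with Senexin B, 10.10 in pLKO.1 and 9.81 in shCDK8. Both treated arrays were below both controls, by -0.22 for Senexin B and -0.29 for shCDK8 against their own control. Polr1b was at 9.23, 9.03, 9.08 and 8.81 on the same arrays in that order. It showed the same order of treated below control, with differences of -0.20 and -0.27, but its Senexin B value was close to that of pLKO.1. Both subunits were at least 1.2-fold lower in shCDK8 and neither was with Senexin B. The contrast was not tested.

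Among the nucleolar scaffold and rRNA synthesis factors all 5 were below 0 in both comparisons. Ddx21, an RNA helicase that acts in ribosomal RNA transcription and processing, was at 11.14 with DMSO, 10.70 with Senexin B, 11.06 in pLKO.1 and 10.90 in shCDK8. Its Senexin B difference of -0.44, or 1.36-fold, was the largest of all 38, with 3.80% of expressed genes lower still. Mybbp1a, a nucleolar Myb-binding protein, was at 11.90, 11.56, 11.88 and 11.71 in the same order. Its controls were almost level and both treated arrays lay below them, by -0.34 and -0.17. Nolc1, a chaperone of snoRNPs, was at 11.21, 10.96, 11.22 and 11.07, again with level controls and differences of -0.26 and -0.15. Nucleolin, from Ncl, was at 12.58, 12.39, 12.59 and 12.40, and nucleophosmin, from Npm1, at 12.55, 12.43, 12.52 and 12.44, so that in both genes the controls formed one level and the treated arrays another.

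The box C/D snoRNPs methylate ribosomal RNA on a scaffold of Nop56 and Nop58. Nop58 was at 11.74 with DMSO, 11.45 with Senexin B, 11.82 in pLKO.1 and 11.76 in shCDK8. Here the Senexin B array alone was low (-0.29), and shCDK8 lay between the controls. Nop56 was at 11.87, 11.82, 11.93 and 11.85, with differences of -0.054 and -0.083. On the probe set in use the Senexin B difference was among the smallest. Rrp9, a protein specific to the snoRNP that assists the early cuts of the precursor, was at 9.14, 8.75, 8.70 and 8.66. The DMSO array alone was high for Rrp9, so its Senexin B difference of -0.39 stood beside -0.44 between the controls and became 0.053 when pLKO.1 was the reference.

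Box H/ACA snoRNPs carry the pseudouridine synthase dyskerin, from Dkc1, with the partners Gar1 and Nhp2. Dkc1 was at 11.29 with DMSO, 11.06 with Senexin B, 11.24 in pLKO.1 and 11.15 in shCDK8, with the treated arrays below the controls. Nhp2 was at 10.33, 10.15, 10.25 and 9.98, in the same arrangement, and its shCDK8 difference of -0.27 was the larger one. Gar1 was at 9.47, 9.19, 9.25 and 9.40, and did not follow. Its shCDK8 value was 0.14 above pLKO.1, and the DMSO value was the highest.

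The 11 factors of the small subunit that were read had the lowest median of the roles with Senexin B against DMSO, -0.30. Of the 11, 8 were at least 1.2-fold lower, where 14.1% of all expressed genes were. With pLKO.1 as the reference their median was -0.16, with 4 at least 1.2-fold lower, where 12.7% were. The nucleolar scaffold and rRNA synthesis factors were then the lowest role, at -0.26. Heatr1, Wdr43, Wdr75 and Utp15 belong to the subcomplex that joins the precursor first and also supports its transcription. Heatr1 was at 9.93 with DMSO, 9.58 with Senexin B, 9.86 in pLKO.1 and 9.54 in shCDK8. With -0.35 and -0.32 it was the only one of the 38 at least 1.2-fold lower in both comparisons, 1 of 38 where 2.33% of expressed genes were; in either comparison 19 of 38 were, where 23.3% were. Utp15 was at 9.90, 9.48, 9.75 and 9.75, so that Senexin B alone was low (-0.42) and the hairpin line matched its vector control. Wdr43 showed a similar pattern at 11.83, 11.53, 11.78 and 11.74, while Wdr75, at 10.89, 10.76, 10.82 and 10.63, was lowest in shCDK8.

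Later small subunit factors also lay lower with Senexin B. Rrp12, which takes part in export of the precursor particle, was at 9.32 with DMSO, 8.92 with Senexin B, 9.29 in pLKO.1 and 9.20 in shCDK8. Its controls were 0.025 apart in size and the Senexin B array stood well below both. Utp20, a large scaffold protein, was at 9.51, 9.24, 9.73 and 9.67, and was lowest with Senexin B against either control, at -0.28 and -0.49, although the controls themselves differed by 0.21. Bms1, a GTPase, Dcaf13, a WD-repeat protein, and Noc4l, the partner of Nop14, were 1.23-fold, 1.23-fold and 1.22-fold lower with Senexin B than with DMSO. With pLKO.1 as the reference their Senexin B differences were smaller, at -0.14, -0.089 and -0.16. In shCDK8 the same 3 genes were at -0.051, -0.15 and -0.14. Nop14 (-0.21 and -0.070) and the helicase gene Ddx10 (-0.11 and -0.18) completed the group.

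The 14 large subunit factors had a median of -0.20 with Senexin B, and 2 of the 14, Bop1 and Nop2, were at least 1.2-fold lower, a share at the 14.1% of all expressed genes. Bop1, Pes1 and Wdr12 form a complex needed for processing of the large subunit RNA. Bop1 was at 10.47 with DMSO, 10.05 with Senexin B, 10.31 in pLKO.1 and 10.07 in shCDK8. The treated arrays were almost level with each other and below both controls, at -0.42 and -0.24. Its partners differed less: Pes1 was at -0.15 and -0.18 and Wdr12 at -0.23 and -0.087. Nop2, an RNA methyltransferase, was at 11.98, 11.61, 11.87 and 11.74, with the Senexin B array lowest and a difference of -0.37.

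Some large subunit factors went their own way in the hairpin line. Gnl3, the GTPase nucleostemin, was at 10.98 with DMSO, 10.86 with Senexin B, 10.92 in pLKO.1 and 11.15 in shCDK8. It was 0.23 higher in shCDK8 than in pLKO.1, the highest value among the 38 in that comparison. Noc3l was at 10.22, 10.19, 10.20 and 9.91, so that 3 arrays were level and shCDK8 alone was low (-0.30). Nop16 was at 10.78, 10.67, 10.51 and 10.26, and here the control lines differed by more than Senexin B and DMSO did. Of the others, Ftsj3, an RNA methyltransferase, was at -0.23 with Senexin B and 0.053 in shCDK8, and Noc2l at -0.15 and -0.23. Ebna1bp2 stood at -0.24 in both, Nip7 at -0.19 and -0.12, Rrs1 at -0.12 and -0.13, Rrp1b at -0.20 and -0.11, and the helicase gene Ddx18 at -0.21 and -0.14.

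The inhibitor and the hairpin comparisons have no array in common. Lower in both were 34 of 38, where 28.4% of all expressed genes were, the exceptions being Gar1, Gnl3, Ftsj3 and Utp15, all of them higher in shCDK8 than in pLKO.1, Utp15 by only 0.0047. Because all 38 were lower with Senexin B, this count is that of the shCDK8 comparison and adds nothing to it. The Senexin B difference was the lower one for 26 of 38, where 54.8% of all expressed genes had that order. Across the 38 genes Pearson's r was -0.11 and Spearman's rho -0.23, and across all expressed genes they were 0.0078 and 0.054. These are correlations across genes measured on the same 4 arrays, and genes are not independent replicates.

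**Figure D3:**
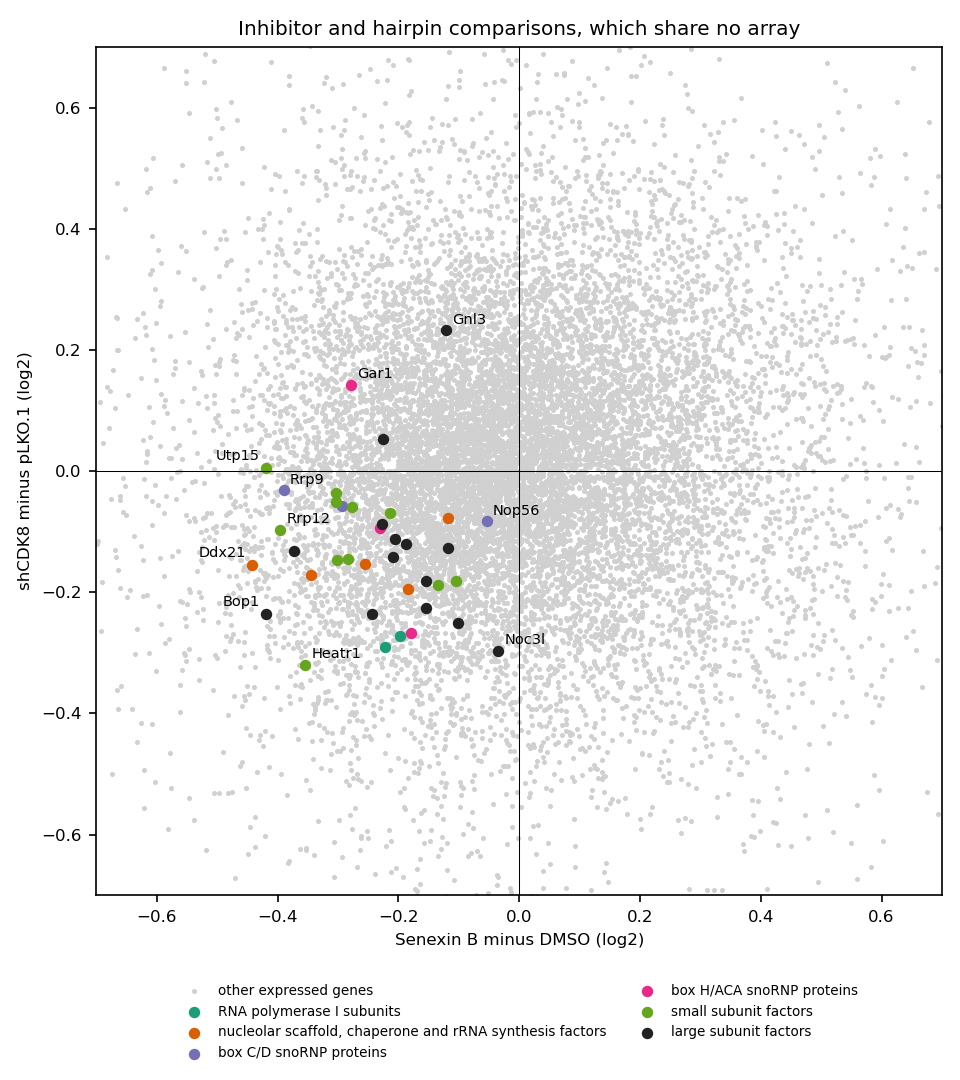
Difference of log2 values for Senexin B minus DMSO (horizontal axis) and shCDK8 minus pLKO.1 (vertical axis), with the 38 genes coloured by role over the other expressed genes in grey. Grey points beyond the axes are not drawn, and 34 of the 38 coloured points lie below 0 on both axes.

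Of the 38 genes 6 had more than 1 probe set of their own, which gives a second reading under the same symbol. For Nop56 the probe set in use was at -0.054 with Senexin B, and the other probe sets at -0.47 and -0.41. For Npm1 the second probe set, at 7.44 with DMSO and 6.73 with Senexin B, gave -0.72 where the first gave -0.12. Ddx21 (-0.22 in the second), Rrs1 (-0.22) and Ddx18 (-0.29) were below 0 in either probe set, in shCDK8 as well. Bms1 differed between its probe sets, with -0.026 with Senexin B and 0.29 in shCDK8 in the second. The sizes for Nop56 and Npm1 therefore depend on the probe set, while their direction did not.

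The promoters of the genes were read for what they share, since the genes lay lower together. RefSeq windows of GRCm38.p6, from 250 bases before to 50 after each start, were at hand for 34 of the 40. The E-box CACGTG, a site bound by Myc and related factors, was in 6 of the 34 (17.6%), against 8.09% of all genes with a window and 11.1% of the expressed ones. The ETS-type letters CCGGAAG, on either strand, were in 12 (35.3%), against 17.5% of expressed genes. GGGCGG, the GC box, was in 27 (79.4%) against 64.2%, TATAAA in 2 (5.88%) against 9.41% and CCAAT in 12 (35.3%) against 41.9%, each on either strand. No motif contains another, though matches of different motifs can overlap. A match describes the letters and is not a measured binding site.

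All 6 E-boxes are shown in their surroundings of 30 bases, 5′ to 3′ in the direction of the gene, with the E-box in capitals, because 5 of them lie after the start that the window is set on. Counted from that start, the Nop2 site begins 60 bases before it, and the others begin 3 (Pes1), 18 (Wdr43), 25 (Tsr1), 38 (Utp20) and 41 (Mybbp1a) bases after it. For Wdr43 the RefSeq gene begins further upstream, and the site is 55 bases from that gene start. For the other 5 the window's start and the gene's are the same.
Nop2, chr6:125131811-125131840, plus strand: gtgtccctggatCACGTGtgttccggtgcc
Pes1, chr11:3963965-3963994, plus strand: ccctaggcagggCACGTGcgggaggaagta
Wdr43, chr17:71616220-71616249, plus strand: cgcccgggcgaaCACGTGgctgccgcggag
Tsr1, chr11:74898092-74898121, plus strand: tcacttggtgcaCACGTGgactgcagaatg
Utp20, chr10:88826765-88826794, minus strand: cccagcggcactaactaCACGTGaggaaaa
Mybbp1a, chr11:72441347-72441376, plus strand: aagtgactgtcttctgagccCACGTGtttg

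Of these, Tsr1 was not read on the array. The 5 others had a median of -0.30 with Senexin B, and the 28 read genes with a window and no E-box -0.22. In shCDK8 the order was not kept, at -0.13 and -0.14. Over all expressed genes the medians with Senexin B were -0.049 with and -0.032 without the E-box. When only the 250 bases before the start were searched, the E-box was in 1 of the 34, Nop2, or 2.94%, against 9.40% of expressed genes, so its share among these genes rests on the bases after the windows' starts. The ETS-type letters remained in 8 (23.5%), against 13.7%.

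The 250 bases before the start are shown for Nop2, which holds both motifs, for Heatr1, the gene at least 1.2-fold lower in both comparisons, and for Ddx21, the lowest with Senexin B. Capitals mark any of the 5 motifs searched.
Nop2, chr6:125131633-125131882, plus strand: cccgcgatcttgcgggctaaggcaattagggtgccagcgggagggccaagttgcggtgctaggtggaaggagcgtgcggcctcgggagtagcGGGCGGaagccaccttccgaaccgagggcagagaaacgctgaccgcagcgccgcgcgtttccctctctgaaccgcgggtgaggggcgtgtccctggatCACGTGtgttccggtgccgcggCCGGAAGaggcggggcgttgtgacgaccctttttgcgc
Heatr1, chr13:12395125-12395374, plus strand: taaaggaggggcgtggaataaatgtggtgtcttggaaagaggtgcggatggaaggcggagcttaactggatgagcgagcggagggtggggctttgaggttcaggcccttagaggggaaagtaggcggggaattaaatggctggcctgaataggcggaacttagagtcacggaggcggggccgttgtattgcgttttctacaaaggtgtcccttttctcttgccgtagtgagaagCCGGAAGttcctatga
Ddx21, chr10:62602299-62602548, minus strand: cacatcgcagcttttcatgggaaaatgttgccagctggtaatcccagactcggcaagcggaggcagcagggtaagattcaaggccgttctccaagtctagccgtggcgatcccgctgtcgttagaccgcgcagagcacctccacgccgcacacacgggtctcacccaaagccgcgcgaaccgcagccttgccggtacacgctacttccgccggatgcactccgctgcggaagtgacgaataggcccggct
In Nop2 the GC box begins 158, the E-box 60 and the ETS-type letters 38 bases before the start. Heatr1 has the ETS-type letters 16 bases before it. The Ddx21 stretch has none of the 5, and a GC box begins 4 bases after its start. Ddx21 had the lowest Senexin B difference of the 38 against DMSO on the probe set in use. Averaged over its probe sets the difference was -0.33, and against pLKO.1 Utp20 was lower, at -0.49 beside -0.35 for Ddx21. Its window has no exact match to the E-box or the ETS-type letters, and near matches were not searched.

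Other genes of the pathway came from wider lists, which were written with earlier results of these data known. Other small subunit factors were below 0 with Senexin B in 36 of 40, with a median of -0.20, where 55.1% of all expressed genes were. Of the 40, 14 were at least 1.2-fold lower and none 1.2-fold higher, where 14.1% and 13.1% of all expressed genes were. Between the controls 33 were below 0, where 55.6% of all expressed genes were, with a median of -0.085. With pLKO.1 as the reference the Senexin B median was -0.087, with 30 below 0 against 50.2% and 6 at least 1.2-fold lower against 12.7%. Bysl, which acts late in small subunit assembly, was at 9.85 with DMSO, 9.45 with Senexin B, 9.54 in pLKO.1 and 9.41 in shCDK8. Its DMSO value was the high one, and the other 3 arrays lay closer together. Ltv1, which is also a late factor, was at -0.42 with Senexin B. In shCDK8 27 of the 40 were below 0, against 49.1% of all expressed genes, with a median of -0.070. Utp14a stood out at 9.18, 9.05, 9.17 and 8.44, a difference of -0.72 in shCDK8 alone.

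Other large subunit factors were below 0 with Senexin B in 42 of 47, where 55.1% of all expressed genes were, with a median of -0.18. At least 1.2-fold lower were 13, against 14.1%. Between the controls 36 of the 47 were below 0, where 55.6% of all expressed genes were, with a median of -0.064. With pLKO.1 as the reference the Senexin B median was -0.14, with 37 below 0 against 50.2% and 9 at least 1.2-fold lower against 12.7%. Mdn1, a giant ATPase that strips factors from the large subunit precursor, was at 8.41 with DMSO, 7.68 with Senexin B, 8.39 in pLKO.1 and 8.41 in shCDK8. Senexin B alone was low for Mdn1, at -0.74, more than for any of the 38. In shCDK8 27 of the 47 were below 0 against 49.1% of all expressed genes, and 3 were at least 1.2-fold lower against 11.5%. Their median in that comparison was -0.026, and Nol8 was at -0.63. The RNA exosome, which trims the ends of the ribosomal precursors, was below 0 with Senexin B in 12 of 12 with a median of -0.14. In shCDK8 7 of the 12 were below 0, against 49.1% of all expressed genes, and between the controls 9, against 55.6%. With pLKO.1 as the reference 11 were below 0 with Senexin B, against 50.2%.

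RNA polymerase I machinery outside the 38 had a median of -0.12 with Senexin B and 0.072 in shCDK8, over 13 genes. Between the controls its median was -0.088, and with pLKO.1 as the reference the Senexin B median was -0.013. Cd3eap, a subunit of the polymerase, was at -0.35 with Senexin B, and Rrn3, which recruits it to the promoter, at -0.31. Ubtf, the factor that marks the ribosomal genes, was at -0.27 in shCDK8. Of 19 subunits of RNA polymerases II and III some also serve polymerase I. With Senexin B 18 of the 19 were below 0, with a median of -0.21, and in shCDK8 6, with a median of 0.036. Between the controls 16 were below 0, with a median of -0.086. With pLKO.1 as the reference 11 were below 0 with Senexin B, with a median of -0.049. The shares of all expressed genes below 0 were, in this order, 55.1%, 49.1%, 55.6% and 50.2%. The shared subunit Polr2l was at 6.92 with DMSO, 5.52 with Senexin B, 6.91 in pLKO.1 and 5.75 in shCDK8. Both treated values were under the expression limit, so the sizes of -1.39 and -1.15 are uncertain. Among other snoRNP proteins and snoRNP assembly factors 9 of 11 were below 0 with Senexin B, 9 in shCDK8 and 8 between the controls. The shares of all expressed genes were 55.1%, 49.1% and 55.6%. Shq1, a chaperone of dyskerin, was 0.65 higher with Senexin B, while Znhit6 of the same list was at -0.59.

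The ribosomal proteins themselves lay nearer to 0. Cytosolic ribosomal protein genes had medians of -0.054 with Senexin B and -0.0015 in shCDK8 over 64 genes. Below 0 were 47 and 32 of them, where 55.1% and 49.1% of all expressed genes were. Near-identical pseudogene copies make single values of this family uncertain. Translation factors had medians of -0.059 and -0.043 over 26 genes. Mitochondrial ribosomal proteins were at -0.16 with Senexin B, 62 of 70 below 0, but at -0.16 between the controls too, and at 0.0082 with pLKO.1 as the reference. Reference genes had a median of -0.073 with Senexin B over 9 genes, 7 of them below 0.

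**Figure D4:**
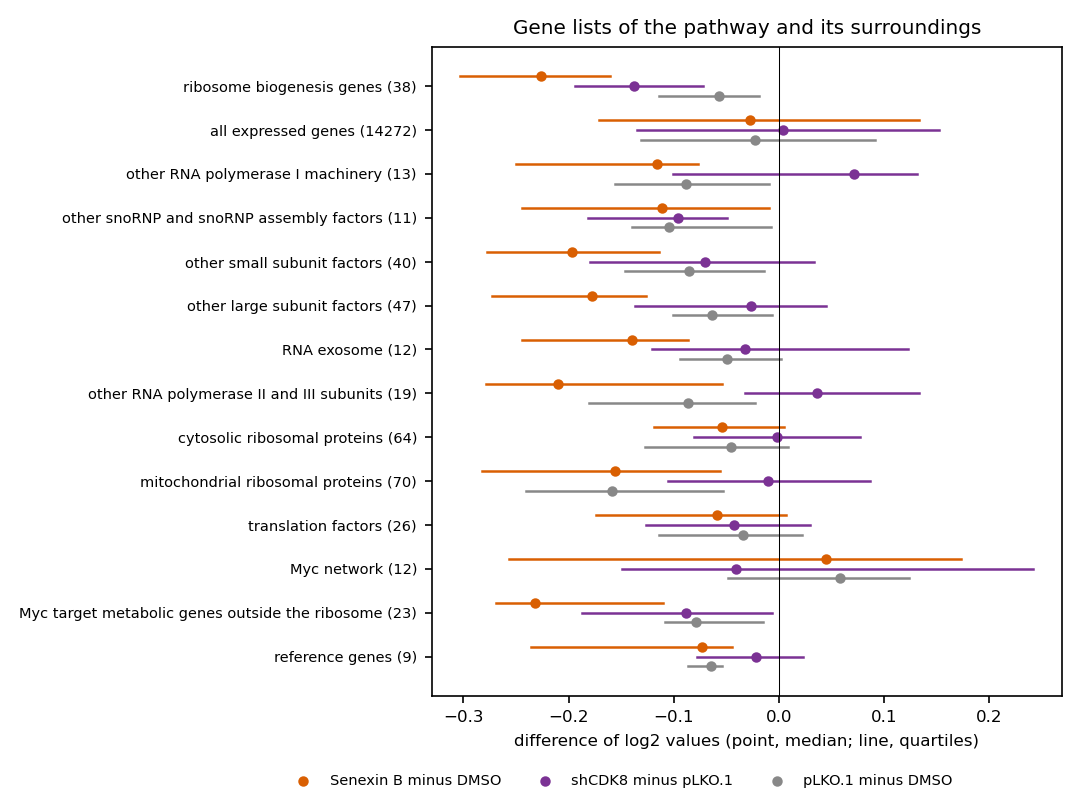
Median (point) and quartiles (line) over genes of the difference of log2 values, for each list (number of expressed genes in brackets) in the 3 comparisons. The 38 ribosome biogenesis genes have medians of -0.23, -0.14 and -0.057, and the cytosolic ribosomal proteins -0.054, -0.0015 and -0.046.

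Myc itself was at 10.27 with DMSO, 10.32 with Senexin B, 10.34 in pLKO.1 and 10.12 in shCDK8. Its transcript was thus 0.049 higher with Senexin B and lowest in the hairpin line, by -0.22. Max, the obligate partner of Myc, was at 9.10, 8.87, 9.12 and 8.92, with both treated arrays below both controls. Mxi1, a competitor of Myc for Max, was 0.16 higher with Senexin B and 0.44 higher in shCDK8. Mnt, which acts in the same way, was at 7.42, 7.62, 7.59 and 7.82, highest in shCDK8. Mxd3 and Mga, also in the network, lay lower, Mxd3 at -0.35 with Senexin B and -0.15 in shCDK8, and Mga at -0.36 and -0.074. Of the 12 network genes 5 were below 0 with Senexin B and 7 in shCDK8, where 55.1% and 49.1% of all expressed genes were. The network had medians of 0.045 and -0.041 with no common direction.

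Known Myc targets outside the ribosome were also read, 23 of them. With Senexin B 19 were below 0, with a median of -0.23 and 7 at least 1.2-fold lower, beside -0.079 between the controls. The transferrin receptor gene Tfrc was at 10.78 with DMSO, 10.32 with Senexin B, 10.67 in pLKO.1 and 10.52 in shCDK8, the treated arrays below the controls, by -0.45 and -0.16. In shCDK8 19 of the 23 were below 0, against 49.1% of all expressed genes, with a median of -0.088. Nampt, the enzyme that limits NAD salvage, stood apart at -0.76, and Odc1, the first enzyme of polyamine synthesis, was at -0.45.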

How the data were processed

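Total RNA of 4 CT26 cultures was hybridised to 1 array each. The deposited values are log2 expression per probe set, which the authors made with RMA and Affymetrix Expression Console, per the submitters' processing notes. Versions are not given there, and it was not stated if one run covered the 4 arrays. RMA equalizes the arrays' distributions, so a shift common to all genes is removed. Depth does not apply to arrays: their number, 1 a group, limits the precision.

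Of 41345 probe sets 23521 had 1 gene symbol in the platform annotation, 1814 several and 16010 none. The computations used Python 3.11.15, pandas 2.3.3 and statsmodels 0.14.6 and were tested on simulated data. Alternatives were quantile normalization of the deposited values, subtraction of a lowess trend on level (span 0.3), averaging over probe sets, dropping genes that have several, a floor at 5.98, the other control as reference, the mean of the members, thresholds of 1.1-fold, 1.5-fold and 2-fold, filters at the 60th and 80th percentile or none, and each role left out. Lower than both controls, and the promoter window without the bases after the start, were chosen after seeing the data. A value counted as moved from 0.1, a count beyond a factor of 1.5.

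The genes and lists were chosen with earlier results of these data known. Named genes were all 38 measured genes, the Myc network, Cdk8, and up to 4 expressed genes per other list with the largest absolute difference in a comparison, with the cell type markers.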

Additional observations from a re-analysis of the deposited data

How the results depend on the processing

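The medians of the 38 genes moved by less than 0.1 under every alternative run, the other control and each role left out included, and the direction was kept. Counts at least 1.2-fold lower moved most. With Senexin B the count of 15 was 8 after removal of the lowess trend, 30 at 1.1-fold, and 0 at 1.5-fold and at 2-fold. In shCDK8 the count of 5 was 9 with DMSO as the reference, 19 at 1.1-fold, and 0 at 1.5-fold and at 2-fold. Between the controls the count of 2 was 1 after quantile normalization and 1 without the trend, 8 at 1.1-fold, and 0 at 1.5-fold and at 2-fold. Of 628 alternative values of single genes 595 moved by less than 0.1. Many of them could not move, among them all 114 with the floor and all 96 of genes with a single probe set. With the other control as reference 50 of 76 moved by less than 0.1, 25 moved further and 1, Rrp9, reversed. Over all settings 19 changed sign. Of those 19, Rrp9 alone started from a difference past 1.2-fold, and it went to 0.053 with Senexin B against pLKO.1. With Senexin B Nop16 also changed sign with pLKO.1 as the reference, to 0.16, Noc3l without the trend and after quantile normalization, and Nop56 without the trend. In shCDK8 Utp20 (to 0.15), Nop58, Gar1, Utp15 and Ftsj3 did so with DMSO as the reference, and Bms1 (to 0.12) with averaged probe sets. The other 8 were differences between the controls. The median of the mitochondrial ribosomal proteins reversed in the same setting, to 0.0082. The cause was not tested. No paired analysis was possible because each group has 1 array. No array could be left out for the same reason, and signal over background of each probe set was not used here.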
